A study of Mus musculus with 9 samples.

Results

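10 genes of the Wnt/β-catenin pathway were followed in mouse liver: Axin2, Lgr5, Tbx3, Notum, Rnf43, Znrf3, Nkd1, Ctnnb1, Rspo3 and Wnt2. They were chosen by name as targets and components of the pathway, with earlier results of these data known. A probe belonged to a gene when its RefSeq accession mapped to that symbol. This gave 12 of the 55681 probes on the array, for 10 of the 20972 genes that could be named. Axin2 and Nkd1 had 2 probes each and the other 8 genes had 1. All 10 genes and 11 of the 12 probes passed the filter on dim probes.

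Wnt proteins are secreted ligands that bind Frizzled receptors with Lrp5 or Lrp6, and this stops a cytoplasmic complex of Apc, Axin and Gsk3 from sending β-catenin to degradation. β-catenin then enters the nucleus and acts with Tcf and Lef factors on target genes, several of which feed back on the pathway as inhibitors. In the liver the pathway is known for zonation: endothelial cells of the central vein supply Wnt ligands and Rspo3, and the hepatocytes around that vein express the pericentral genes, whereas periportal hepatocytes express another set.

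The study placed liver RNA of 9 male mice, each 20 weeks old, on separate 1-colour Agilent arrays. STAM mice, a model in which diabetes with steatohepatitis proceeds to liver cancer, received streptozotocin, a toxin of the insulin-secreting cells, shortly after birth and were then kept on a high-fat diet. The STAM-NON group (n = 3) had no treatment and the STAM-INS group (n = 3) had insulin, which the study's methods describe as injected under the skin. For studies at 20 weeks of age the methods name both insulin glargine and insulin degludec. Their array section does not say which of them these mice had. The Normal group (n = 3) were lean mice that had neither streptozotocin nor the high-fat diet, so diet and toxin are not separated in any comparison with it. The study's methods name the strain of the STAM mice as C57B/6 J. Whether the liver pieces held tumour is not given in the sources used here. The share of spots well above background lay between 46.2% and 65.0% per array. It was 59.3%, 63.1% and 65.0% in STAM-NON mice 1 and 3 and STAM-INS mouse 1, with lowest detected signals of 10.7, 10.1 and 8.65. On the other arrays, which include all Normal arrays, it was at most 51.1%, with lowest detected signals of 13.2 to 19.2. Counts of arrays on which a dim probe was detected thus depend on the array too. All Normal arrays were on 1 slide and all STAM arrays on the other, so slide and group cannot be told apart in either comparison with Normal. The 3 STAM-NON arrays lay in row 1 of their slide and the 3 Normal arrays in row 2, with STAM-INS mouse 1 in row 1 and mice 2 and 3 in row 2, so row and group cannot be told apart for STAM-NON against Normal.

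The labelled tissue was checked against its markers. All 8 hepatocyte markers were detected on every array, with a summed level, in multiples of each array's 75th percentile signal, of 3387 to 4461 in STAM-NON, 4170 to 4602 in STAM-INS and 4794 to 5113 in Normal. The 6 macrophage markers summed to 178 to 306, 146 to 348 and 83.8 to 127 in the same order, and the 8 endothelial markers to 59.9 to 84.1, 43.8 to 80.6 and 76.0 to 83.8. Hepatocyte marker sums were thus lower and macrophage marker sums higher in all 6 STAM mice than in the Normal mice. Marker by marker, 1 of the 8 hepatocyte markers was above Normal in STAM-NON (median difference -0.26 on the log2 scale) and 4 in STAM-INS (median -0.03), and 0 passed the limma threshold in either, with 3 and 0 at an unadjusted p under 0.05. The 6 biliary markers summed to 3.89 to 9.43 in STAM-NON, 3.79 to 5.69 in STAM-INS and 1.87 to 3.20 in Normal, and the 9 stellate and fibroblast markers to 86.8 to 142, 67.2 to 85.9 and 72.0 to 82.0. The part of these markers in the values below was not tested. In whole liver, fewer cells of a type and less RNA per cell cannot be told apart.

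Axin2 is the target most often taken as a readout of the pathway, and its promoter is shown here as the start of the gene whose probe is described next. In RefSeq for GRCm38.p6 it covers 250 bases before and 50 bases after the start, on the plus strand at chr11:108920099-108920398, in the 5′ to 3′ direction.
Axin2 promoter: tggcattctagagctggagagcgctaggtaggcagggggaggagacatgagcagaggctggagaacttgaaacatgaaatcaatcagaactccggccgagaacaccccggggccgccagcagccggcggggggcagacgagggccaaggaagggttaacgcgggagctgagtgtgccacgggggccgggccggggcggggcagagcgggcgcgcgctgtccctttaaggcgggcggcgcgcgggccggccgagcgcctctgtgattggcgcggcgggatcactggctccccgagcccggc
Of these letters, 70% were C or G. The Tcf motifs CTTTGAT and CTTTGAA, searched on both strands, were not found in this window. Motifs outside the window would not be seen, so the search cannot tell whether Tcf factors act on the gene. At least 1 of these motifs stood in 8.65% of the 32851 promoters of the table (CTTTGAT in 3.73% and CTTTGAA in 5.14%), and in 0 of the 7 entries for Axin2, Rnf43, Nkd1, Ctnnb1 and Wnt2. The other 5 genes had no entry.

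Values below are centred log2 signals, that is, background-subtracted signals on the log2 scale from which the 75th percentile on that array was taken off, so that 0 is the level of a bright spot and a difference of 1 is a doubling of signal. Levels of different probes are not compared. Differences were tested with limma over 26289 probes, adjusted p-values are by Benjamini-Hochberg over all of these, and the threshold was 0.05.

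STAM-NON and Normal were compared to see how the untreated model differed from lean liver. Notum, which encodes a secreted enzyme that inactivates Wnt proteins and is itself a target of β-catenin, was the 1 gene of the 10 that passed the threshold, and it fell. Across all tested probes 16.1% passed the threshold, 9.76% as lower and 6.30% as higher. The centred log2 signal of Notum was 3.73, 3.87 and 3.56 in STAM-NON mice 1 to 3 and 4.34, 4.47 and 4.27 in Normal mice 1 to 3. Every STAM-NON value was below every Normal value, as was so for 28.0% of all probes, with 13.2% wholly above and 41.2% in either direction. The difference was -0.64 (SE 0.14, limma adjusted p = 0.0238), a signal of 0.641 times that of Normal.

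Notum also fell against Normal in the mice given insulin. Its values in STAM-INS mice 1 to 3 were 3.64, 3.40 and 3.80, which lay within or just beside the STAM-NON range and below all Normal values. The difference from Normal was -0.74 (SE 0.14, limma adjusted p = 0.0144, 0.597 times the Normal signal), where 13.9% of all probes passed, 8.72% as lower and 5.15% as higher. Groups did not overlap for 44.0% of all probes in this comparison, 29.0% with STAM-INS lower and 15.1% with it higher. Between STAM-INS and STAM-NON it differed by -0.10, with a 95% interval of -0.42 to 0.22 (adjusted p = 0.870). The fall from Normal kept its direction under all 23 alternative settings in both comparisons. The call was lost under 11 of them for STAM-NON, among them quantile normalisation (adjusted p = 0.0616), and leaving out STAM-NON mouse 1 or 3 or any 1 of the Normal mice, and under 4 for STAM-INS, 2 of them leaving out STAM-INS mouse 2 or Normal mouse 2. The adjusted p ranged up to 0.288 for STAM-NON and up to 0.0931 for STAM-INS.

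**Figure D1:**
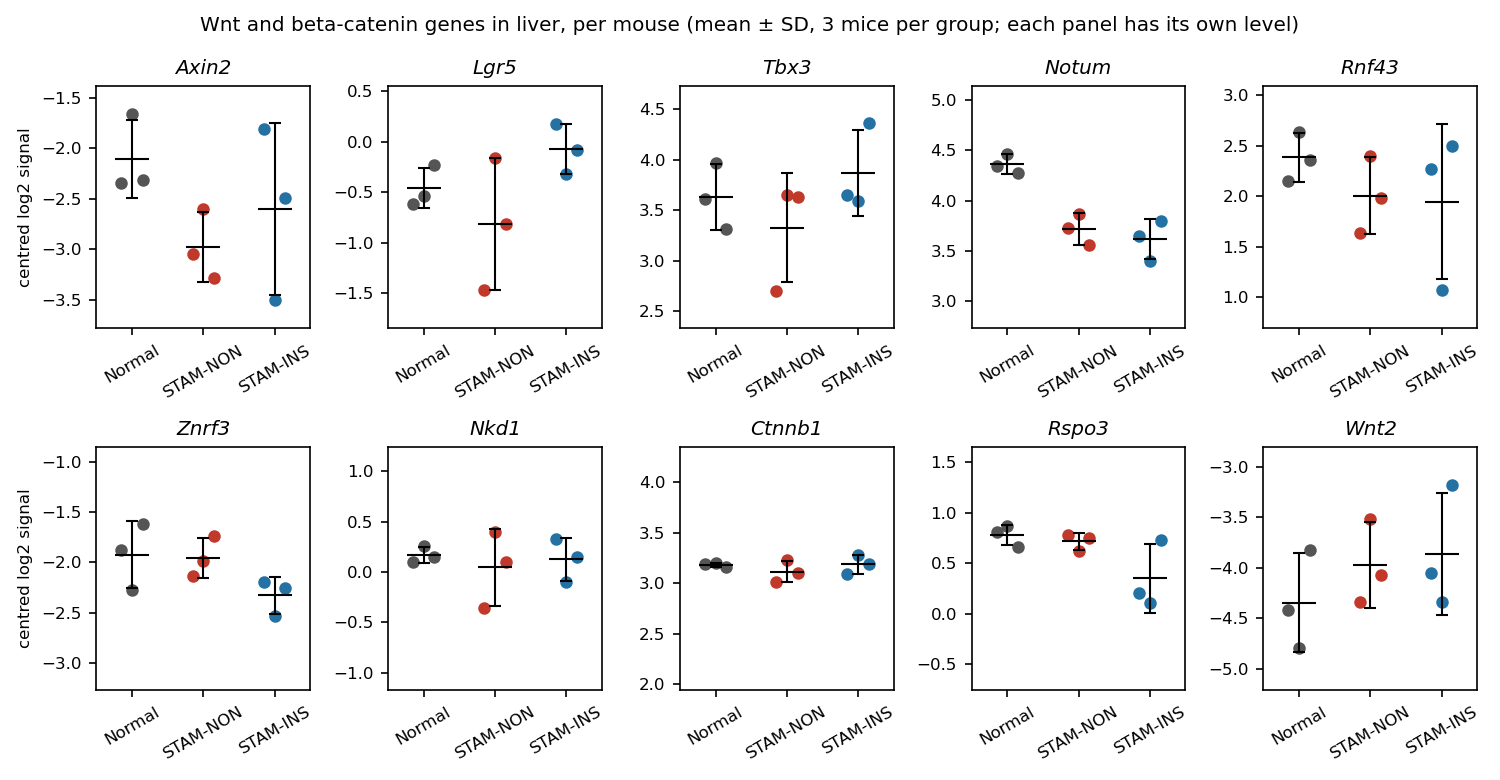
Centred log2 signal of the 10 genes in each mouse (points), with the mean and SD of the 3 mice per group (line and bars); axes span different levels because levels of different probes are not compared. Notum lies between 3.40 and 3.87 in the 6 STAM mice and between 4.27 and 4.47 in the Normal mice, while for Lgr5, Tbx3, Rnf43, Nkd1, Ctnnb1, Rspo3 and Wnt2 the groups overlap in every comparison.

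The other feedback inhibitors among the targets were Axin2, Rnf43, Znrf3 and Nkd1. Axin2 encodes a scaffold of the complex that degrades β-catenin. Its main probe (A_55_P2000783) read -3.05, -2.60 and -3.28 in STAM-NON, -1.81, -3.50 and -2.49 in STAM-INS and -2.35, -1.66 and -2.31 in Normal. It was well above background on every array but dim, with signals of 22.5 to 76.9. The 22.5 of STAM-INS mouse 2 stood beside a lowest detected signal of 18.3 on that array. All STAM-NON values were below all Normal values, whereas STAM-INS overlapped both other groups, with mouse 2 the lowest of all 9. Groups that do not overlap were seen for 41.2% of all probes in STAM-NON against Normal, 28.0% with STAM-NON lower and 13.2% with it higher. The differences were -0.87 (SE 0.41, adjusted p = 0.161) for STAM-NON against Normal, 0.38 (adjusted p = 0.829) for STAM-INS against STAM-NON and -0.49 (adjusted p = 0.426) for STAM-INS against Normal. The 95% interval of the first reached from -1.80 to 0.06, and with normexp background correction in place of the processed signal it was -0.54 and passed (adjusted p = 0.0467).

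Rnf43 and Znrf3 encode membrane ubiquitin ligases that remove Frizzled receptors from the cell surface. Rnf43 read 1.64, 2.40 and 1.98 in STAM-NON, 2.27, 1.07 and 2.50 in STAM-INS and 2.15, 2.64 and 2.36 in Normal. The groups overlapped, and STAM-INS mouse 2, also the lowest for Axin2, was the lowest of the 9 mice. Its differences were -0.38 (adjusted p = 0.476) for STAM-NON and -0.44 (adjusted p = 0.432) for STAM-INS against Normal, and -0.06 between the STAM groups, with a 95% interval of -0.89 to 0.78.

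Znrf3 read -2.13, -1.99 and -1.74 in STAM-NON, -2.20, -2.53 and -2.25 in STAM-INS and -1.87, -2.28 and -1.62 in Normal. All 3 STAM-INS values were below all 3 STAM-NON values, as was so, in that direction, for 4.91% of all probes (7.23% in the other direction and 12.1% in either), but by little against the spread. The difference was -0.37 (SE 0.19, adjusted p = 0.620), and it was -0.40 against Normal (adjusted p = 0.182) and -0.03 between STAM-NON and Normal (adjusted p = 0.918).

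Nkd1 encodes a cytoplasmic inhibitor that binds Dishevelled. Its main probe (A_55_P1967736) read -0.36, 0.40 and 0.10 in STAM-NON, 0.32, -0.10 and 0.15 in STAM-INS and 0.10, 0.26 and 0.15 in Normal, so that the groups overlapped and the STAM-NON mice were the most spread. The differences were -0.12, 0.08 and -0.04 in the order STAM-NON against Normal, STAM-INS against STAM-NON and STAM-INS against Normal (adjusted p = 0.683, 0.933 and 0.902). Its second probe (A_55_P2118694) was close to background, detected on 2 STAM-NON, 3 STAM-INS and 1 Normal array. It read -0.64 in STAM-INS mouse 2 and -4.12 to -3.14 in the other 8 mice, a signal of 164 against 14.2 to 32.7. This single mouse set the mean difference of 1.35 between STAM-INS and Normal (adjusted p = 0.205), which the main probe did not show.

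Lgr5 and Tbx3 are the other targets. Lgr5, an R-spondin receptor found in the hepatocytes next to the central vein, read -1.47, -0.16 and -0.81 in STAM-NON, 0.18, -0.32 and -0.08 in STAM-INS and -0.61, -0.54 and -0.23 in Normal. STAM-NON mouse 1 was the lowest and STAM-INS mouse 1 the highest, and the groups overlapped. STAM-INS exceeded STAM-NON by 0.74 (SE 0.30, 95% interval 0.05 to 1.43), for which the limma p was 0.0391 before and 0.550 after adjustment. Without STAM-NON mouse 1 the difference was 0.41 and without STAM-NON mouse 2 it was 1.07. In this comparison 0.0913% of all probes passed the threshold, 0.0114% as higher and 0.0799% as lower, and 0 of the 10 genes did, by limma or by the methods' t-test before or after adjustment, with Lgr5 the 1 gene at an unadjusted limma p under 0.05. Against Normal it differed by -0.35 in STAM-NON and 0.39 in STAM-INS (adjusted p = 0.423 and 0.402).

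Tbx3, a transcription factor that β-catenin induces in liver, had the same order of group means. It read 2.70, 3.65 and 3.63 in STAM-NON, 3.65, 3.59 and 4.36 in STAM-INS and 3.62, 3.97 and 3.32 in Normal. STAM-NON mouse 1 was again the lowest and STAM-INS mouse 3 the highest, and the other 7 mice lay between 3.32 and 3.97. The differences were -0.31 (adjusted p = 0.506), 0.54 (95% interval -0.18 to 1.26, adjusted p = 0.653) and 0.23 (adjusted p = 0.635) in the order given above.

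**Figure D2:**
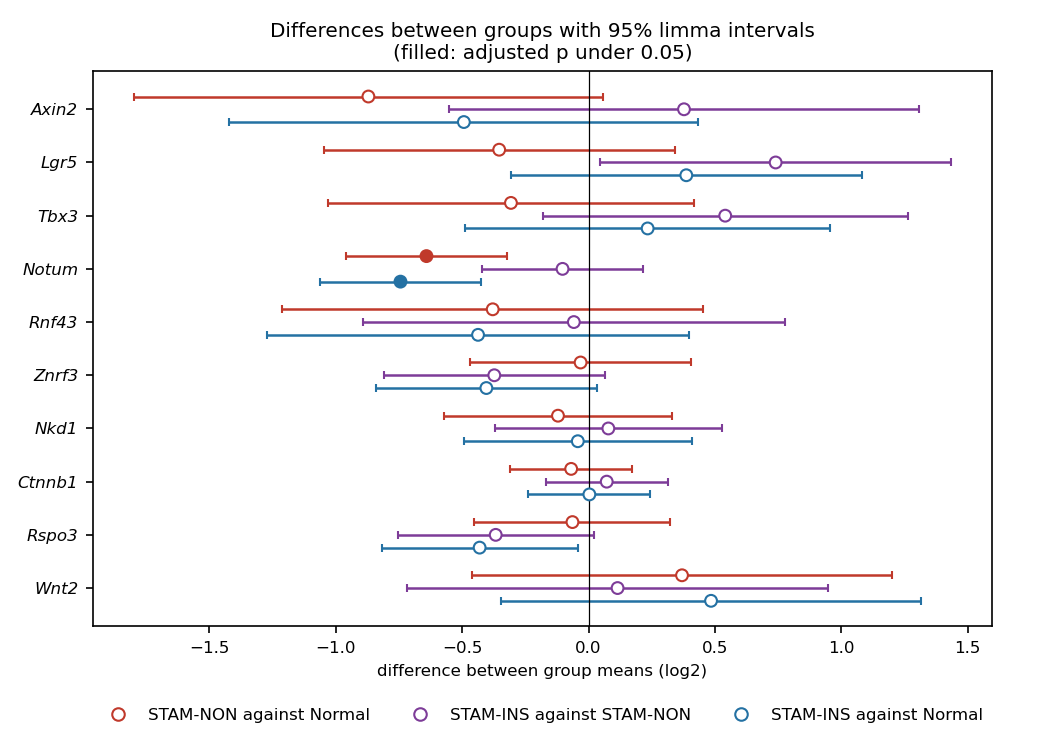
Differences between group means (log2) for the 10 genes in the 3 comparisons, with 95% limma intervals; filled points have an adjusted p under 0.05. Only the 2 points of Notum against Normal are filled, at -0.64 and -0.74, and the intervals of Ctnnb1 are the narrowest, reaching from -0.31 to 0.31 over all 3 comparisons.

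Ctnnb1 encodes β-catenin, which is controlled mainly through the stability of the protein, a quantity that an array does not read. Its transcript read 3.02, 3.23 and 3.10 in STAM-NON, 3.09, 3.28 and 3.19 in STAM-INS and 3.19, 3.20 and 3.16 in Normal. All 9 values lay within a narrow span and the groups overlapped. Differences were -0.07, 0.07 and 0.00 in the same order (adjusted p = 0.665, 0.883 and 0.986), and the 95% intervals were -0.31 to 0.17, -0.17 to 0.31 and -0.24 to 0.25.

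Of the ligand arm, Rspo3, which binds Lgr receptors and takes Rnf43 and Znrf3 off the membrane, read 0.78, 0.62 and 0.75 in STAM-NON, 0.21, 0.10 and 0.74 in STAM-INS and 0.81, 0.87 and 0.67 in Normal. STAM-INS mice 1 and 2 were below all other mice and STAM-INS mouse 3 was not. The difference of STAM-INS from Normal was -0.43 (SE 0.17, limma adjusted p = 0.120, and 0.0333 before adjustment), that from STAM-NON -0.37 (adjusted p = 0.581), and STAM-NON differed from Normal by -0.06 (adjusted p = 0.809). Without STAM-INS mouse 3 the difference of STAM-INS from Normal was -0.62 and passed (adjusted p = 0.0334). This was the 1 alternative under which Rspo3 passed in that comparison, and the other 23 left it short of the threshold. The lowest endothelial marker sum also lay in STAM-INS, and its part in this value was not tested.

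Wnt2, a ligand of liver endothelial cells, was near background. It was detected on 3 STAM-NON, 2 STAM-INS and 1 Normal array, with signals of 8.46 to 27.4. The lowest detected signal was 10.1 to 17.6 on the STAM-NON and 13.2 to 19.2 on the Normal arrays. These detection counts are therefore not read as a difference between groups. Wnt2 read -4.34, -3.51 and -4.07 in STAM-NON, -4.06, -4.34 and -3.18 in STAM-INS and -4.42, -4.79 and -3.82 in Normal. The groups overlapped, the differences were 0.37, 0.11 and 0.48 (adjusted p = 0.486, 0.950 and 0.382).

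As a group, 9 of the 10 genes were below 0 in STAM-NON against Normal, with a median of -0.21, but the median over all probes was -0.13 in that comparison. In STAM-INS against Normal the medians were -0.22 for the 10 genes and -0.09 for all probes, and in STAM-INS against STAM-NON 0.08 and 0.03. The shift of all probes depends on the scaling, from -0.29 with centring on the median to 0.18 with centring on spike-in RNA for STAM-NON against Normal. Under all 6 settings of background correction and scaling Notum was below the median of all probes, by 0.38 to 0.51 in STAM-NON and by 0.52 to 0.65 in STAM-INS. So was Axin2, by 0.42 to 0.88 and by 0.18 to 0.47. Scalings that shift each array by a constant leave this distance unchanged, so only normexp background correction and quantile normalisation could alter it. Differences from Normal of Tbx3, Znrf3, Nkd1, Ctnnb1 and Rspo3 in STAM-NON, and of Nkd1 and Ctnnb1 in STAM-INS, changed sign with the scaling. Those of Wnt2 turned with normexp background correction alone, in both STAM groups.

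**Figure D3:**
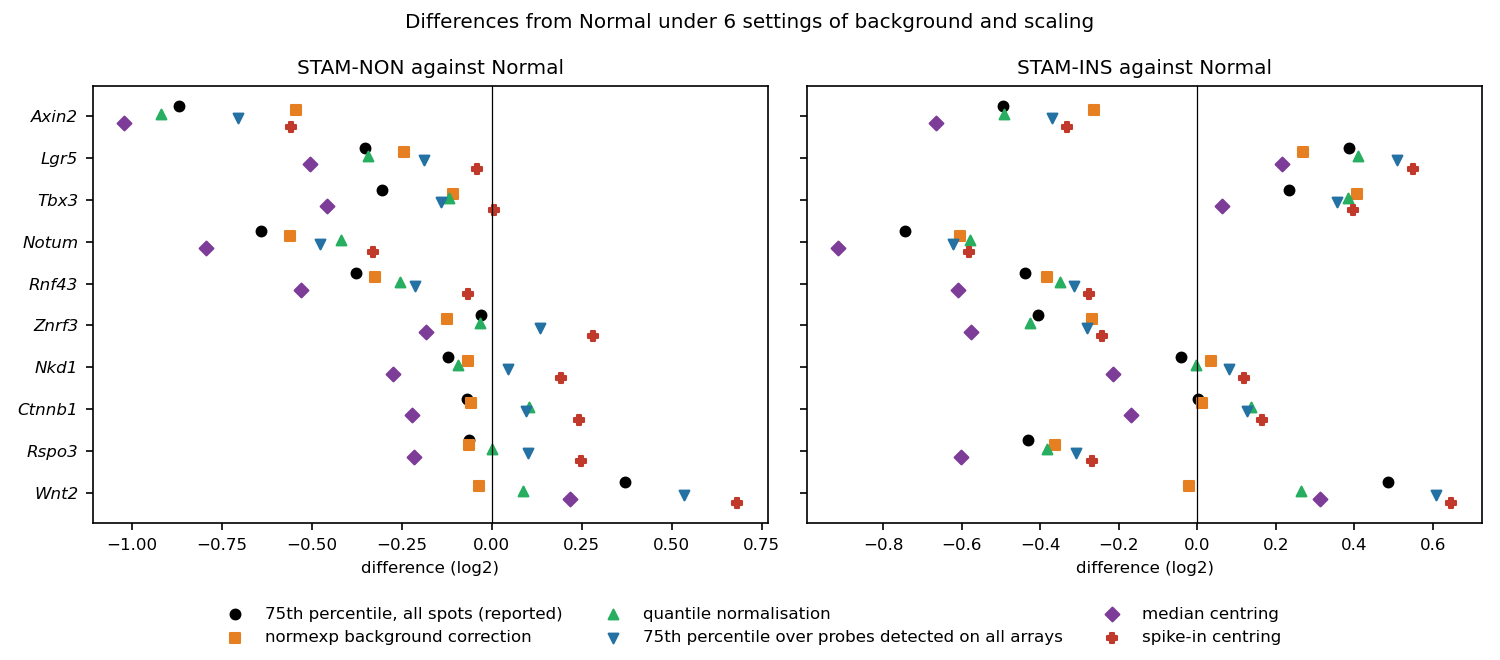
Differences from Normal (log2) of the 10 genes under 6 settings of background correction and scaling, STAM-NON on the left and STAM-INS on the right. Notum lies left of 0 under all 6, from -0.79 to -0.33 in STAM-NON and from -0.92 to -0.58 in STAM-INS, and spike-in centring (plus signs) lies to the right of the reported value for every gene in STAM-NON.

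The genes also varied from mouse to mouse. As a description over the 9 arrays, which include the group differences and share the scaling, Axin2 and Rnf43 had the highest r of the 45 pairs (Pearson's r 0.81, Spearman's rho 0.72), and Axin2 with Notum had r 0.69 and rho 0.72. The 3 tested genes with a pattern most like that of Axin2 were Nat1 (r 0.970), Gtf3c2 (r 0.947) and Sytl1 (r 0.941), over the same 9 arrays. They were picked as the highest r among all tested probes with a gene name, so their r is no test of a link.

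The rest of the pathway was read from lists of 100 other genes, of which 64 were tested. These lists too were chosen with earlier results of these data known. In STAM-NON against Normal 6 of the 64 rose and 8 fell, in STAM-INS against Normal 3 rose and 6 fell, and in STAM-INS against STAM-NON 0 passed, with 5 at an unadjusted limma p under 0.05. With the scaling the split of calls in STAM-NON against Normal moved to 1 higher and 7 lower with median centring, to 7 and 3 when the percentile was taken over detected probes, and to 9 and 0 with spike-in centring. The medians were -0.06, -0.10 and -0.03, near those of all probes given above, and the background of calls over all probes was 16.1%, 13.9% and 0.0913%.

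Of 10 tested ligands and secretion factors, Wnt1 fell in both STAM groups (-0.46 and -0.49). Wnt10a was higher in STAM-INS than in Normal, where it was not well above background on any array, by at least 2.49-fold (limma adjusted p = 0.00582, from Normal values below background). It was detected on 2 STAM-NON and 3 STAM-INS arrays, so it entered the test only through the group in which it was high. Its p-value is therefore no support for a rise. Wnt9b, a ligand of the central vein endothelium, differed by -0.70 (adjusted p = 0.189) and Wls, which carries Wnt proteins to the surface, by 0.46 (adjusted p = 0.115) in STAM-NON against Normal, neither past the threshold.

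Of 10 tested receptors, Fzd4, Fzd8 and Lgr4 fell in STAM-NON. Fzd4, a Frizzled receptor of endothelial cells among others, read 2.35, 2.21 and 1.86 in STAM-NON, 1.33, 1.57 and 1.39 in STAM-INS and 3.19, 2.88 and 2.81 in Normal, with no overlap between any 2 groups. Of all probes, 28.0% lay wholly below Normal in STAM-NON and 29.0% in STAM-INS, and 4.91% lay wholly lower in STAM-INS than in STAM-NON. The differences of Fzd4 from Normal were -0.82 (SE 0.16, adjusted p = 0.0187) in STAM-NON and -1.53 (adjusted p = 0.00262) in STAM-INS, and the STAM groups differed by -0.71 (adjusted p = 0.329). The call for STAM-INS held under all 23 alternatives and that for STAM-NON was lost under 7, among them leaving out any 1 of the Normal mice. Fzd8 fell by 0.89 and 0.88 (adjusted p = 0.0452 and 0.0493), Lgr4, a receptor for R-spondins, by 0.59 (adjusted p = 0.0450), and each of these 3 calls was lost under at least 14 of 23 alternatives. The co-receptors Lrp5 and Lrp6 differed by -0.34 (adjusted p = 0.0568) and -0.15 (adjusted p = 0.338).

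Of 17 secreted and surface inhibitors only 3 were tested, and Frzb, a Wnt-binding protein, was higher in STAM-NON by 2.05 (adjusted p = 0.0332). Frzb was detected on 1 of the 3 Normal arrays and on all STAM arrays, through which it entered the test, so this difference rests in part on Normal values below background. Of 20 genes of the destruction complex and cytoplasm, Apc and Apc2 fell in STAM-NON (-0.74 and -0.50, adjusted p = 0.0208 and 0.0264) and Amer1, which binds Apc, fell in STAM-INS (-0.69, adjusted p = 0.0176). Axin1 and Gsk3b differed by -0.21 and 0.20 in STAM-NON and did not pass. Of 14 nuclear factors, Bcl9, a coactivator of β-catenin, rose by 0.67 and 0.61, Tcf7l1 rose by 0.60 in STAM-NON and Tle1, a corepressor, fell by 0.67 in STAM-INS. The calls were lost under 9 and 18 of 23 alternatives for Bcl9, 15 for Tcf7l1 and 14 for Tle1. Tcf7l2, a Tcf factor, was higher by 0.53 and 0.65 on 1 probe (adjusted p = 0.0449 and 0.0273), but its other 2 probes gave -0.07 and 0.03 in STAM-NON (adjusted p = 0.848 and 0.841), so the probes disagree.

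Of 7 general targets tested, Ccnd1, which encodes cyclin D1, rose by 1.17 in STAM-NON (adjusted p = 0.0342) and Cd44, an adhesion receptor, by 0.89 (adjusted p = 0.0452). Ephb2 and Ephb3, ephrin receptors, fell by 0.62 and 0.61 (adjusted p = 0.0159 and 0.0258), and Ephb3 fell by 0.97 in STAM-INS, a call that held under all 23 alternatives (adjusted p = 0.00549). In STAM-INS against Normal 0 of the 7 passed as higher, with 3 above 0. Calls of the list thus went in both directions at the reported scaling. In STAM-NON, the Ccnd1 and Cd44 calls were lost under 11 and 14 of 23 alternatives, both with median centring. Those of Ephb2 and Ephb3 were lost under 6 and 13, both with spike-in centring. Leaving out Normal mouse 2 or 3 lost each of these STAM-NON calls. Macrophage marker sums were higher than Normal in both STAM groups. The part of these markers in the Cd44 difference was not tested.

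**Figure D4:**
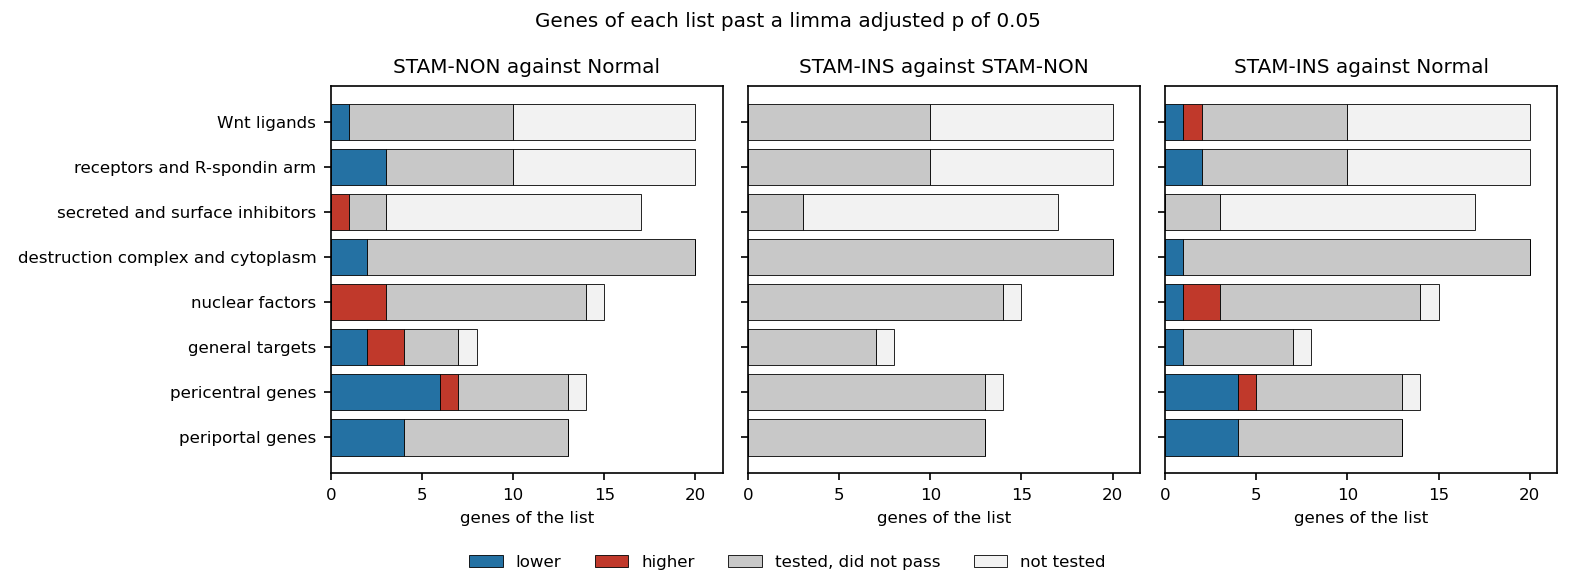
Number of genes of each list that were lower (blue), higher (red), tested without passing (grey) or not tested (white) at a limma adjusted p of 0.05, in the 3 comparisons. In STAM-NON against Normal the pericentral list has the most genes that fell, 6 of 13 tested, in STAM-INS against Normal it has 4, as many as the periportal list, and no list has a gene past the threshold between the STAM groups.

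Pericentral and periportal genes were set beside the members because the pathway is known for keeping this zonation. Both lists were chosen with earlier results of these data known, so their counts are a description. In STAM-NON against Normal, 6 of 13 tested pericentral genes fell and 1 rose, with a median difference of -0.88, and 4 of 13 periportal genes fell and 0 rose, with a median of -0.32. Over all probes 9.76% fell and 6.30% rose, with a median of -0.13. For STAM-NON, the periportal median was -0.0049 with quantile normalisation and -0.0098 with spike-in centring, where that of all probes was -0.037 and 0.18. The periportal median was -0.27 with normexp, -0.16 with the percentile over detected probes and -0.47 with median centring. In the same order of settings the pericentral median was -0.62, -0.56, -0.89, -0.71 and -1.03. In STAM-INS 4 pericentral genes fell and 1 rose (median -0.78), and 4 periportal genes fell (median -0.41), beside 8.72% of all probes that fell, 5.15% that rose and a median of -0.09. With quantile normalisation and spike-in centring, the STAM-INS medians were -0.63 and -0.62 for pericentral and -0.20 and -0.24 for periportal genes. Between the STAM groups 0 genes of either list passed, with 1 pericentral and 2 periportal genes at an unadjusted limma p under 0.05. The sums of hepatocyte markers were also lower in both STAM groups, though 4 of these 8 markers were above Normal in STAM-INS, and no test set the lists against each other.

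The pericentral genes that fell were Cyp1a2 and the other drug-metabolising enzymes Cyp2c37 and Cyp2c29, with the receptor Nr1i3, Lect2 and Rgn. Cyp1a2 read 0.60, 2.26 and 0.26 in STAM-NON, 1.95, 1.32 and 1.97 in STAM-INS and 3.91, 4.19 and 3.93 in Normal, with both STAM groups wholly below Normal. The share of all probes wholly below Normal was 28.0% in STAM-NON and 29.0% in STAM-INS. Cyp1a2 differed by -2.97 (adjusted p = 0.0108) in STAM-NON and -2.26 (adjusted p = 0.0193) in STAM-INS. Cyp2c37 fell by 1.97 and 1.96 and Nr1i3 by 0.81 and 1.06, and Cyp2c29 fell in both groups, by 1.65 in STAM-NON. Lect2 and Rgn fell in STAM-NON by 0.97 and 0.80, calls lost under 12 and 16 of 23 alternatives. Slc13a3, a carboxylate transporter, rose in both groups, by 0.91 in STAM-INS.

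Glul, Oat, Slc1a2 and, on its brighter probe, Cyp2e1 did not pass. Glul, glutamine synthetase, read 5.49, 6.63 and 5.50 in STAM-NON, 6.23, 5.95 and 6.21 in STAM-INS and 6.34, 6.36 and 6.31 in Normal. STAM-NON mice 1 and 3 were the lowest and STAM-NON mouse 2 the highest of all, and the difference from Normal was -0.46 (adjusted p = 0.272) in STAM-NON and -0.20 (adjusted p = 0.644) in STAM-INS. Oat and Slc1a2 differed by -1.11 (adjusted p = 0.244) and -1.06 (adjusted p = 0.0980) in STAM-NON. Cyp2e1 differed by -0.88 on its brighter probe (adjusted p = 0.0840) and by -1.32 on the other (adjusted p = 0.0446).

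Of the periportal genes, Hal, Cyp2f2, Cps1 and Arg1 fell in STAM-NON, by 1.16, 1.16, 0.67 and 0.42. In STAM-INS Cyp2f2, Cps1, Asl and Arg1 fell, by 0.80, 0.67, 0.49 and 0.46. The Arg1 calls were lost under 19 of 23 alternatives in STAM-NON and 13 in STAM-INS, and those of Cyp2f2 under 4 and 11. Cps1, Asl and Arg1 are enzymes of the urea cycle. Gls2 differed by -0.53 and Sds by 0.23 in STAM-NON, neither past the threshold. Of the 45 calls against Normal named here, Notum included, 6 held without any 1 mouse: Cyp1a2 and Cyp2c29 in STAM-NON, Fzd4, Ephb3 and Nr1i3 in STAM-INS, and Wnt10a in STAM-INS, which a filter of detection on all arrays would leave untested. Wnt10a entered the test only through the group in which it was high. The same probes were tested in each of these fits, so holding there adds no support for it. Leaving out Normal mouse 1, 2 or 3 lost 29, 36 and 37 of the 45, STAM-NON mouse 1, 2 or 3 lost 23, 4 and 20, and STAM-INS mouse 1, 2 or 3 lost 14, 20 and 14. All 45 kept their direction under every alternative setting that tested them.

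**Figure D5:**
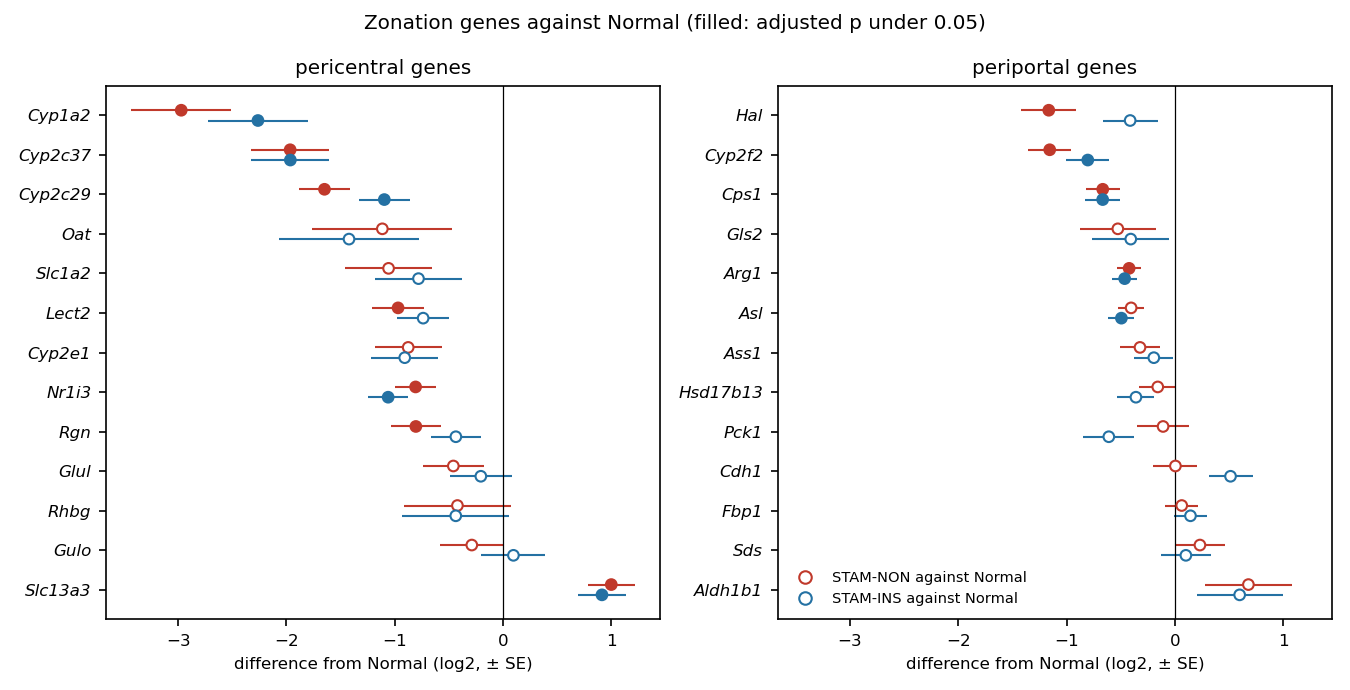
Differences from Normal (log2, with the SE) of pericentral genes on the left and periportal genes on the right, for STAM-NON (red) and STAM-INS (blue); filled points have an adjusted p under 0.05. Cyp1a2 is the farthest from 0, at -2.97 and -2.26, and Slc13a3 is the 1 filled gene to the right of 0.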

How the data were processed

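Liver RNA of 9 mice was read on 1-colour arrays (Cy3). The deposited files hold, per the file headers, the background-subtracted intensity of each spot from Agilent Feature Extraction 11.5.1.1, on a linear scale and not normalised between arrays, on an array design built on mm9. The labels and the study's methods name different RNA extraction kits, and the methods state neither a normalisation nor an array test. Labels gave the groups and the replicate numbers. Probes were named through their accessions with a RefSeq table of GRCm38.p6 (27656 of 55681 probes), used for names and promoters. Members and gene lists were chosen with earlier results of these data known.

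Control spots and flagged spots were left out, log2 of the intensity was centred on each array's 75th percentile over 59305 spots, and spots of a probe were averaged. Tested probes had 0.5 or more of their spots flagged well above background on all 3 arrays in at least 1 group. limma 3.58.1 in R 4.3.3 was fitted to all 9 arrays (lmFit and eBayes, two-sided, 6 residual degrees of freedom). Of a gene with several probes, the tested probe with the highest mean was used. Other genes named were those of each list past the threshold in at least 1 comparison, at most 8 a list, with a list of zonation and pathway genes kept as anchors. Where all arrays of a group left a probe below background, its fold is a bound, taken against its own signal there or the array's lowest detected signal, whichever was higher. Nothing says which samples were separate litters, so p-values measure the spread between these mice, and the number of arrays limits precision. The code was tested on simulated data. Alternatives were background correction, 4 other scalings, filters, blocks, fits, the methods' t-test, and leaving out each array. The files used hold no mean signal, so normexp used the median signals of spot and background.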

Additional observations from a re-analysis of the deposited data

Results flagged for a closer look

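The second Axin2 probe (A_66_P134405) was too dim to be tested and entered no comparison. It stood well above background on 2 STAM arrays, 1 STAM-NON and 1 STAM-INS, and on 0 Normal arrays. Its centred log2 signal was -4.32, -4.40 and -4.94 in STAM-NON, -3.91, -3.96 and -3.73 in STAM-INS and -5.62, -4.14 and -3.98 in Normal, with signals of 5.0 to 18.7. No order of the groups is read from it at this signal.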

How the results depend on the processing

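Of the 10 genes, Axin2, Lgr5, Notum and Rnf43 kept their sign against Normal under every alternative, in both STAM groups, but some came close to 0. Without STAM-INS mouse 2 the STAM-INS difference was -0.00062 for Rnf43 and -0.044 for Axin2, and without STAM-NON mouse 1 the STAM-NON difference was -0.025 for Lgr5. Between STAM-NON and Normal, the count of the 10 genes called was 2 with normexp and 0 with quantile normalisation, spike-in centring, no filter on dim probes, the slide row as a block and the methods' t-test after adjustment (2 before it). Without 1 mouse it was 0 to 1, and 0 to 2 in STAM-INS against Normal, where it was 0 with spike-in centring and with no filter. Other pathway genes called numbered 9 with spike-in centring, 0 with no filter, the row block and the adjusted t-test, 8 with median centring and 5 in a fit of the compared groups alone, against 14. The pericentral count was 4 with spike-in centring, 1 with no filter and 0 with the row block and the adjusted t-test, against 7. The periportal count was 2 with quantile normalisation and with the percentile over detected probes, 1 with spike-in centring and 0 with no filter, the row block and the adjusted t-test, against 4. In STAM-INS against Normal the pathway count was 4 with spike-in centring, 3 with no filter, 5 with the row block and the adjusted t-test and 21 unadjusted, the pericentral count 0 with no filter and 3 with the row block and the t-test, and the periportal count 0 with quantile normalisation, spike-in centring and no filter, 1 with the percentile over detected probes, 2 with the row block and the t-test and 7 unadjusted. In STAM-INS against STAM-NON 5 pathway genes passed the unadjusted t-test. Without 1 mouse the pathway counts ranged from 0 to 21 and from 3 to 9 in STAM-NON and STAM-INS against Normal, the pericentral counts from 2 to 9 and from 1 to 7 and the periportal counts from 0 to 4 and from 0 to 5. The cause was not tested.

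Signs that turned in STAM-NON against Normal were those of Wnt2 with normexp (-0.035), Ctnnb1 with quantile normalisation (0.10), Tbx3, Znrf3, Nkd1, Ctnnb1 and Rspo3 with spike-in centring (0.0051, 0.28, 0.19, 0.24 and 0.25), Znrf3, Nkd1, Ctnnb1 and Rspo3 with the percentile over detected probes (0.13, 0.044, 0.096 and 0.10), Nkd1 with the mean of its probes (0.078), and Tbx3, Ctnnb1 and Rspo3 with the row block (0.016, 0.077 and 0.15). In STAM-INS against STAM-NON they were Nkd1, Ctnnb1 and Wnt2 with spike-in centring (-0.071, -0.078 and -0.035) and Rnf43, Ctnnb1 and Wnt2 with the row block (0.26, -0.025 and -0.081). In STAM-INS against Normal they were Wnt2 and Nkd1 with normexp (-0.020 and 0.036), Nkd1 with spike-in centring (0.12), with the percentile over detected probes (0.081) and with the mean of its probes (0.65), and Ctnnb1 with median centring (-0.17). Without 1 mouse, STAM-NON against Normal ranged from -0.47 to 0.0057 for Tbx3, -0.21 to 0.12 for Znrf3 and -0.30 to 0.081 for Nkd1. STAM-INS against STAM-NON ranged from -0.018 to 0.83 for Axin2, -0.19 to 0.0024 for Notum, -0.33 to 0.38 for Rnf43, -0.12 to 0.25 for Nkd1 and -0.22 to 0.36 for Wnt2. STAM-INS against Normal ranged from -0.011 to 0.40 for Tbx3, -0.14 to 0.068 for Nkd1 and -0.044 to 0.052 for Ctnnb1.

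Replicate numbers are shared by the groups, and deviations of same-numbered mice correlated between -0.29 and 0.15. The reported fit used no pairing. With 3 mice a group, these correlations cannot exclude one. With the replicate number as a block, STAM-NON against Normal gave 0 of the 10 genes, 4 pathway, 4 pericentral and 1 periportal gene, and STAM-INS against Normal 3 pathway and 0 periportal genes. Over all probes, STAM-NON against Normal had 4220 calls as reported, 2016 with the block, 250 with no filter, 15 with the row block, 2180 in a fit of the compared groups and 30 with the adjusted t-test (7536 unadjusted). The row block for STAM-NON rests on STAM-INS mouse 1, the 1 STAM-INS array in row 1, and for STAM-INS against Normal it gives the same count of calls as leaving that mouse out. STAM-INS against Normal had 3647 calls as reported, 1871 with the block, 571 with no filter, 2157 with the row block and 2206 with spike-in centring. STAM-INS against STAM-NON had 24 as reported, 6 with the block, 7 with no filter, 6 with detection on all arrays, 13 with the row block, 8 in the fit of the compared groups and 1 with the adjusted t-test. For STAM-NON against Normal the splits of calls into higher and lower were 1655 and 2565 as reported, 2738 and 458 with spike-in centring, 1539 and 1426 with quantile normalisation, 2077 and 1064 with the percentile over detected probes, and 1313 and 3389 with normexp. For STAM-INS against Normal they were 1355 and 2292 as reported, 1492 and 714 with spike-in centring, 801 and 2111 with median centring, and 1679 and 1298 with the percentile over detected probes. Precision is limited by 3 arrays a group and, for Wnt2 and the second probes of Axin2 and Nkd1, by signal near background. The main Axin2 probe was also dim, with signals of 22.5 to 76.9.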
